A study of Homo sapiens with 9 samples.

Results

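The RNA polymerase I and III machinery comprised 37 genes, chosen by symbol: the subunits of polymerase I (Pol I) and polymerase III (Pol III), the factors that start and end their transcription, and regulators of these steps. All 37 symbols matched a gene identifier among the 60234 of the count table, and 37 of 37 passed the filter on low counts, so no member was lost for low expression. The samples were total RNA of Ramos, a B cell line from a Burkitt lymphoma free of EBV, in 3 groups of 3 biological replicates: untreated cells (0 h), and cells kept for 3 h or for 6 h in 3 µM CHIR99021, an inhibitor of the kinase GSK-3. All 9 libraries came from this 1 line in the same medium. Each treated group was compared with the same untreated group, and untreated cells kept for 3 h or 6 h were not among the samples, so treatment and time in culture cannot be told apart.

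Pol I has a single task, the transcription of the ribosomal RNA precursor from the ribosomal DNA repeats in the nucleolus. Pol III makes the 5S ribosomal RNA, the transfer RNAs, U6 and other short RNAs, and shares several subunits with Pol I. MYC is known to activate transcription by both enzymes, and proliferating lymphoma cells depend on their output for ribosomes.

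Reads in genes ranged from 46359911 to 52880876 per library, and 15847 genes were tested. All 9 germinal centre B cell markers were present, with a summed level (CPM, the reads of a gene relative to the scaled total of its library) of 7647 to 8080 CPM at 0 h, 7998 to 8609 CPM at 3 h and 8317 to 9241 CPM at 6 h. IGHM alone gave most of this sum, with a mean of 4597 CPM at 0 h, and the markers moved in both directions: 5 of the 9 were higher and 3 lower at each time, with MS4A1 at 0.95 ± 0.0455 and BCL6 at -0.97 ± 0.0482 on the log2 scale at 6 h (± SE). No library held more than 1 read of a T cell marker, 7 reads of a myeloid marker or 1 read of an epithelial or fibroblast marker. The 3 times separated on the first principal component, which held 68.6% of the variance. Untreated replicate 3 stood apart from the other untreated libraries by transcript length: its log2 level minus their mean had a median of 0.127 in the 3058 genes with the shortest exon length and -0.175 in the 3051 with the longest (4 bins of about equal size). For POLR1H, BDP1, GTF3C4, GTF3C1 and MAF1, values are also given without it. POLR1A, POLR3A and DDX21, at -0.31, -0.29 and -0.27 in it on the same scale, are given with it only. With 1 library left out, their log2 fold changes at 3 h were as low as 1.33, 0.745 and 1.12. Of the 37 members, 21 share some exon length with another gene, and 4 share over 20% with 1 gene.

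Most of the machinery was higher in CHIR99021. After 3 h, 30 of the 37 members were higher than at 0 h, 2 were lower and 5 did not pass (edgeR's quasi-likelihood test, Benjamini-Hochberg adjusted p under 0.05). Of all genes tested, 32.8% were higher and 33.5% lower in the same comparison. After 6 h, 31 members were higher, 2 were lower and 4 did not pass, against 35.7% higher and 35% lower of all genes tested. The median log2 fold change of the members was 0.62 at 3 h and 0.64 at 6 h, beside medians of -0.01 and 0.02 over all genes tested. At least 2-fold higher were 8 members at 3 h, against 4.95% of all genes, and 9 members at 6 h, against 6.44%. No member was 2-fold lower at either time, against 10.6% and 13% of all genes.

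The levels are relative to the other RNAs of a library: in bulk RNA, fewer cells of a type and less RNA per cell cannot be told apart. With libraries scaled by their size alone, the median of all genes moved to -0.22 at 3 h and -0.22 at 6 h, and the members' medians to 0.42 and 0.41. Under that scaling 26 members were higher and 6 lower at 3 h, and over all genes 3468 were higher and 7451 lower, against 5201 and 5304 with the usual factors. At 6 h it gave 25 members higher and 3 lower, and over all genes 3656 higher and 7504 lower, against 5660 and 5553. Upper-quartile factors gave 26 members higher and 5 lower at 3 h and 28 higher and 3 lower at 6 h, with 3852 genes higher and 6854 lower at 3 h and 4352 higher and 6736 lower at 6 h. Both of these scalings ended the calls at 3 h of TAF1A, TTF1, POLR3D and GTF3A and those at 6 h of TAF1B, POLR3C and MAF1. Under both, POLR1D, GTF3C1 and POLR3C were lower at 3 h and TTF1 was lower at 6 h. GTF3C3 was lower at 3 h with library size alone. Library size alone also ended the calls at 6 h of POLR3D, BDP1 and GTF3C1.

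The libraries of the treated and untreated groups did not overlap for most members. At 3 h, the 3 treated libraries all lay above the 3 untreated libraries for 30 members and all below for 3, against 34.8% and 35.4% of all genes tested. At 6 h the counts were 32 members above and 2 below, against 36.2% and 35.5%. Between 6 h and 3 h, 14 members lay wholly above and 9 wholly below, against 27.2% and 28%. The plot of each library shows these values gene by gene.

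**Figure D1:**
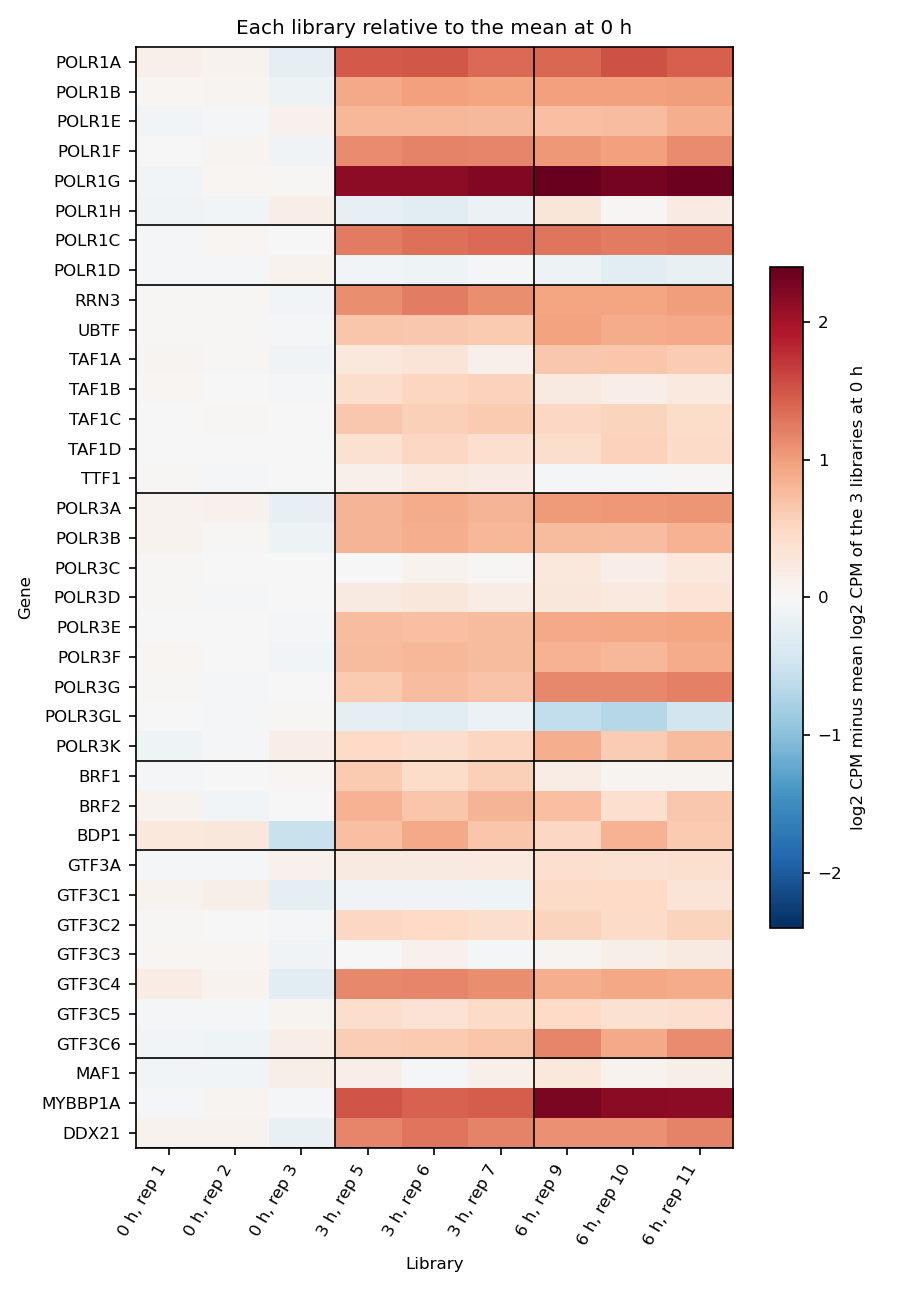
Log2 CPM of each of the 37 genes (rows) in each of the 9 libraries (columns), minus the mean log2 CPM of the 3 libraries at 0 h; red is above that mean and blue below, and black lines separate the times and the gene groups. POLR1G and MYBBP1A are the darkest red rows, POLR3GL is blue at 3 h and 6 h, and untreated replicate 3 is below the other untreated libraries for BDP1 and GTF3C4.

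The promoters of 4 members on which the results turn are shown: POLR1G and MYBBP1A, which had the largest rises, POLR3A, the largest Pol III subunit, and POLR3GL, which fell at both times. Each sequence is the RefSeq window of 250 bases before to 50 bases after the gene start in GRCh38.p14, read in the direction of the gene, with the hexamer CACGTG in capitals. CACGTG is the canonical E-box bound by MYC with MAX, and it reads the same on both strands.
POLR1G, chr19:45406394-45406693, plus strand: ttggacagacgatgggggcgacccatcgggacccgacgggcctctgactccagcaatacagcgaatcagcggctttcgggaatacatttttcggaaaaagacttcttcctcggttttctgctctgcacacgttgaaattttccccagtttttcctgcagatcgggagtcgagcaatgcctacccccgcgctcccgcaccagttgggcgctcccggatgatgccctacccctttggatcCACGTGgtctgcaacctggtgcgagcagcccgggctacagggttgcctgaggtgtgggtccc
MYBBP1A, chr17:4555335-4555634, minus strand: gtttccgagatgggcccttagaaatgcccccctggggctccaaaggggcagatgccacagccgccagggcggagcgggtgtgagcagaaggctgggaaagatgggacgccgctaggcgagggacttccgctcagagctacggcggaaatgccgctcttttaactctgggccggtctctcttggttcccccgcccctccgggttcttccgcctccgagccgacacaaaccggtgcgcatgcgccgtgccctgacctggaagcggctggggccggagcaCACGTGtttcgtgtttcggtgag
POLR3A, chr10:78029466-78029765, minus strand: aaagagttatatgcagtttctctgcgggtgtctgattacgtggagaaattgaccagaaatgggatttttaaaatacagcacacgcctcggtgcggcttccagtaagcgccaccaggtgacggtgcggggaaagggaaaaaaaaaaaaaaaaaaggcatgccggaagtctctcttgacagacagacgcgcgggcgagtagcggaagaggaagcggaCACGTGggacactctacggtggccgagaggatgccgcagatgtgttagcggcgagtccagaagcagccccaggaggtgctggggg
POLR3GL, chr1:145964440-145964739, plus strand: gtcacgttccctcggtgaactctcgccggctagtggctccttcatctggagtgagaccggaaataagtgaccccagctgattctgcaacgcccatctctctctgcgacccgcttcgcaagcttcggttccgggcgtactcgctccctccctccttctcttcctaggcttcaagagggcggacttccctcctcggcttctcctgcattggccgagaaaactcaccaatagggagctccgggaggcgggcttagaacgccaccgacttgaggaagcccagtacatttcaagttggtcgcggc

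In bases from the gene start, negative upstream, the hexamer began at -12 in POLR1G, at 28 in MYBBP1A and at -35 in POLR3A, and the POLR3GL window held none. A window was on hand for 32 of the 37 members, and 9 of the 32 held CACGTG, which is 28.1%. Among tested genes with a window the share was 12.6%, 1286 of 10233, and among all 27305 genes with a window it was 8.775%. A gene can have several windows. Counted by window, the share was 20% for the members, 9 of 45, and 7.26% for all 35116 windows. The other 6 members with the hexamer were DDX21, GTF3C2, GTF3C4, GTF3C6, POLR3C and POLR3E. By group, it lay in 3 of 7 Pol III subunits, 3 of 7 genes of TFIIIA and TFIIIC, 1 of 5 Pol I subunits, 2 of 2 regulators, 0 of 7 Pol I initiation and termination factors, 0 of 2 subunits shared by Pol I and III and 0 of 2 TFIIIB genes. The windows of POLR1A, POLR1C, POLR1F and RRN3, which also rose at both times, held none, so the 4 windows shown do not stand for all members. BRF2, MAF1, POLR3D, POLR1E and POLR3G had no window. A match is a description of the letters and not of binding, which was not measured.

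Among the 6 subunits found in Pol I alone, 5 were higher at both times, against 32.8% of all genes tested at 3 h and 35.7% at 6 h, and the sixth, POLR1H, was lower at 3 h. POLR1A (ENSG00000068654), the largest subunit with the catalytic centre, had 89.2, 86.1 and 70.5 CPM at 0 h, 225, 229 and 209 CPM at 3 h and 213, 236 and 221 CPM at 6 h. Every treated library lay above every untreated library. POLR1A had a log2 fold change of 1.43 ± 0.0794, adjusted p = 4.21e-09, at 3 h and 1.45 ± 0.0795, adjusted p = 2.67e-09, at 6 h (± SE, edgeR, as for all log2 fold changes below), or 2.7-fold and 2.73-fold. POLR1B, the second largest subunit, which closes the active centre with POLR1A, averaged 58.9 ± 3.97, 114 ± 3.11 and 117 ± 1.08 CPM at 0 h, 3 h and 6 h (SD, n = 3 each), with log2 fold changes of 0.95 ± 0.0544 and 0.99 ± 0.0545 at 3 h and 6 h. Neither gene passed between 6 h and 3 h (log2 fold change 0.02 ± 0.0775, adjusted p = 0.891, for POLR1A and 0.04 ± 0.0536, adjusted p = 0.569, for POLR1B).

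POLR1G (ENSG00000117877) had the largest rise of the 37 genes at both times. With POLR1E it forms the dimer that is specific to Pol I and resembles the general initiation factors of polymerase II. POLR1G had 7.59, 8.17 and 8.05 CPM at 0 h, 35, 35.2 and 36.9 CPM at 3 h and 42.6, 39.2 and 40.8 CPM at 6 h. Every treated library lay far above every untreated one, and the 3 libraries of each time lay close together. POLR1G had a log2 fold change of 2.17 ± 0.0592, adjusted p = 1.06e-11, at 3 h and 2.36 ± 0.0593, adjusted p = 1.51e-12, at 6 h, which is 4.50-fold and 5.15-fold. POLR1G was higher at 6 h than at 3 h (0.20 ± 0.0537, adjusted p = 0.00942). Its dimer partner POLR1E had means of 43.5 ± 2.94, 75.3 ± 0.50 and 74.9 ± 4.45 CPM at 0 h, 3 h and 6 h (SD, n = 3 each). POLR1E had log2 fold changes of 0.79 ± 0.0593 and 0.78 ± 0.0594 at 3 h and 6 h. Per kilobase of exon, POLR1E was the highest of the 6 Pol I subunits at 0 h with 17.3 CPM per kb and POLR1G the lowest with 2.17. At 6 h these levels were 29.8 and 11.2 CPM per kb. In the GENCODE v29 models, 43.5% of the exon length of POLR1G overlaps the DNA repair gene ERCC1, which averaged 28.2 CPM at 0 h, 30.7 CPM at 3 h and 43.0 CPM at 6 h. ERCC1 had log2 fold changes of 0.12 (adjusted p = 0.112) at 3 h and 0.61 (adjusted p = 1.31e-06) at 6 h. Whether reads were assigned by strand is not given in the sources used here, and the part of this overlap in the POLR1G values was not tested.

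POLR1F, a subunit of the stalk through which RRN3 recruits Pol I, averaged 44.0 ± 2.38, 98.8 ± 2.07 and 91.2 ± 4.4 CPM at 0 h, 3 h and 6 h (SD, n = 3 each), with log2 fold changes of 1.17 ± 0.0554 at 3 h and 1.05 ± 0.0554 at 6 h. POLR1H, the small subunit that takes part in RNA cleavage and termination, went the other way at 3 h. POLR1H had 23.2, 23.7 and 27.5 CPM at 0 h, 21.5, 20.5 and 22.4 CPM at 3 h and 30.4, 25.2 and 28.2 CPM at 6 h. All 3 libraries at 3 h were below all untreated libraries, while the libraries at 6 h overlapped with those at 0 h. POLR1H had a log2 fold change of -0.21 ± 0.0795, adjusted p = 0.0339, at 3 h and 0.17 ± 0.0789, adjusted p = 0.0659, at 6 h, where library size alone gave -0.0662. POLR1H stood at 0.38 ± 0.0798, adjusted p = 0.00172, for 6 h against 3 h. Without untreated replicate 3 the call at 3 h was lost (-0.13, adjusted p = 0.0959) and POLR1H was higher at 6 h (0.25, adjusted p = 0.00344). The call at 3 h was also lost without replicate 5 (adjusted p = 0.0788) or replicate 6 (adjusted p = 0.11) of that time. ZNRD1ASP, a noncoding gene that overlaps 24.5% of its exon length, had log2 fold changes of -0.77 (adjusted p = 0.00179) at 3 h and -0.42 (adjusted p = 0.0363) at 6 h. Its part in the POLR1H values was not tested.

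POLR1C and POLR1D, the pair of subunits common to Pol I and Pol III on which both enzymes assemble, differed in direction at 6 h. POLR1C (ENSG00000171453) had 25.6, 27.1 and 26.1 CPM at 0 h, 62.2, 65.8 and 67.1 CPM at 3 h and 64.1, 62.4 and 63 CPM at 6 h. The treated libraries lay far above the untreated ones at both times. POLR1C had a log2 fold change of 1.31 ± 0.0503, adjusted p = 8.73e-11, at 3 h and 1.27 ± 0.0503, adjusted p = 7.19e-11, at 6 h, or 2.48-fold and 2.4-fold. POLR1D (ENSG00000186184) had 82.5, 83.2 and 91.0 CPM at 0 h, 81.5, 79.4 and 82.5 CPM at 3 h and 78.3, 71.6 and 75.4 CPM at 6 h. At both times all 3 of its libraries were below all untreated ones, at 3 h by a narrow margin. POLR1D had a log2 fold change of -0.08 ± 0.0540, adjusted p = 0.224, at 3 h and -0.19 ± 0.0541, adjusted p = 0.00659, at 6 h, so it passed at 6 h alone; with length and GC trends removed the fall at 6 h did not pass (adjusted p = 0.0689). Per kilobase of exon, POLR1C was below POLR1D at 0 h (4.73 and 7.63 CPM per kb) and above it at 6 h (11.4 and 6.70 CPM per kb). In CPM, POLR1C was still below POLR1D at 6 h, with means of 63.2 and 75.1 CPM. The order at 6 h thus depends on the exon lengths used, 5550 and 11210 bases, which pool all transcript models of a gene.

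**Figure D2:**
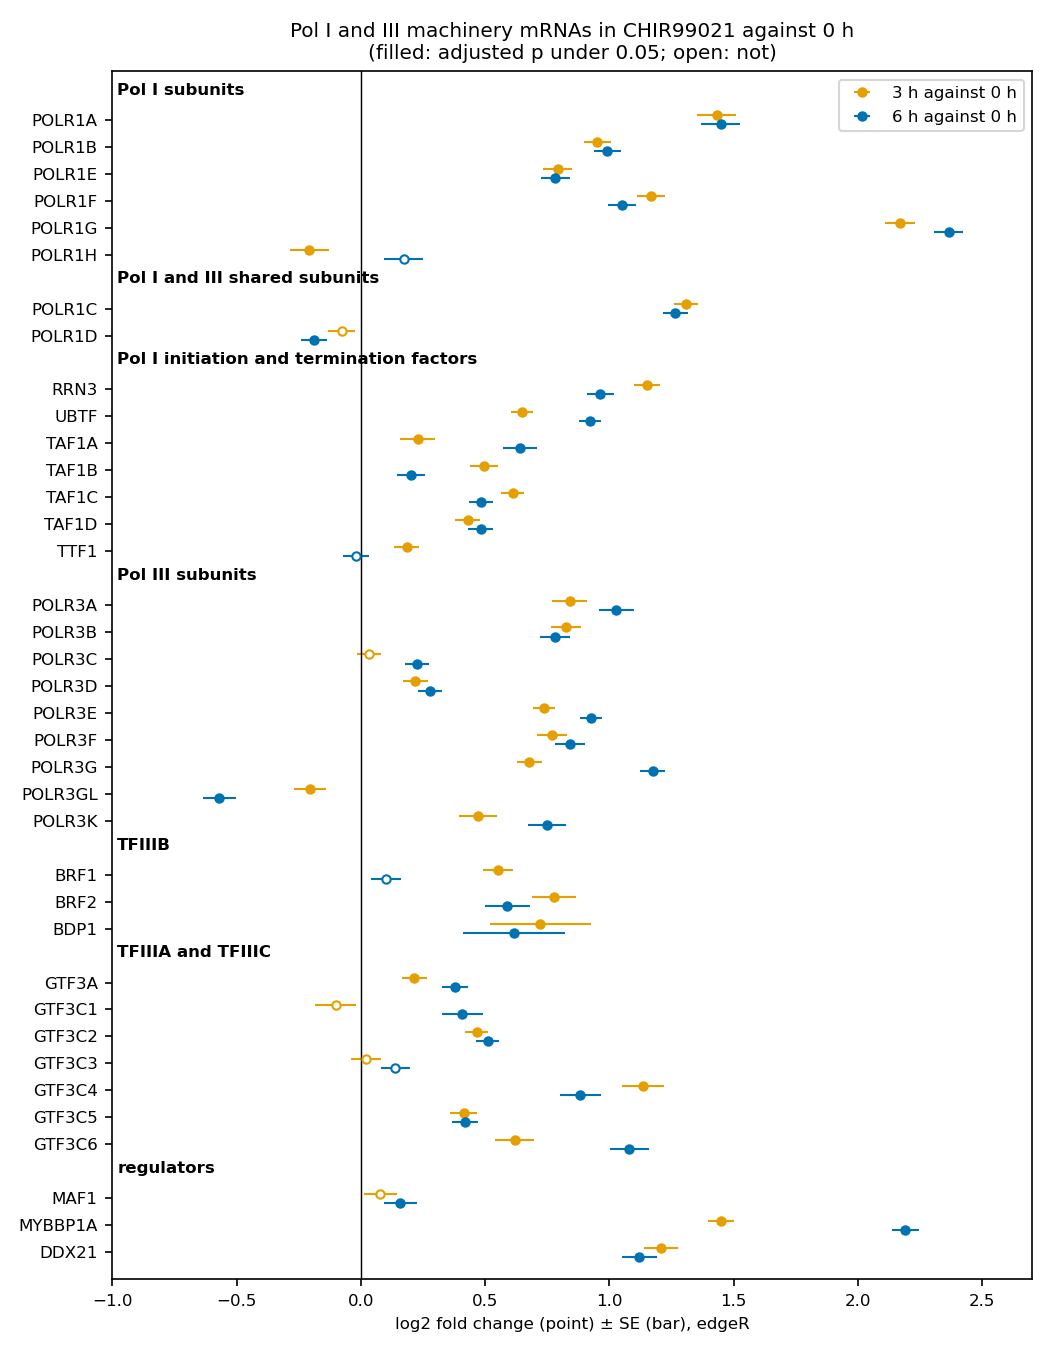
Log2 fold change with its SE (horizontal bar) of each of the 37 genes at 3 h (orange) and 6 h (blue) against 0 h from edgeR, by gene group; filled points have an adjusted p under 0.05. POLR1G and MYBBP1A lie furthest right, with 2.36 and 2.19 at 6 h, and POLR3GL furthest left, with -0.57 at 6 h.

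All 7 Pol I initiation and termination factors were higher at 3 h, with a median log2 fold change of 0.49, and 6 of the 7 were higher at 6 h, with a median of 0.49, against 32.8% and 35.7% of all genes tested. RRN3 (ENSG00000085721), also known as TIF-IA, bridges Pol I to its promoter factors and is a target of growth signals. RRN3 had 36.1, 36.2 and 33.9 CPM at 0 h, 76.3, 83.3 and 76.4 CPM at 3 h and 68.3, 67.9 and 71.0 CPM at 6 h. The 3 groups did not overlap, and the libraries at 3 h were the highest. RRN3 had a log2 fold change of 1.15 ± 0.0535, adjusted p = 4.37e-10, at 3 h and 0.96 ± 0.0535, adjusted p = 1.56e-09, at 6 h. RRN3 stood at -0.19 ± 0.0524, adjusted p = 0.0104, for 6 h against 3 h, so it came partly back. RRN3 has near copies in the genome with which reads can be shared: the pseudogenes RRN3P1, RRN3P2 and RRN3P3 had log2 fold changes of 0.61, 1.30 and 0.26 at 3 h, at mean levels of 6.64, 1.95 and 14.3 CPM at 0 h, and the RRN3 values are uncertain to that extent.

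UBTF (ENSG00000108312), the HMG-box protein that coats active ribosomal DNA and holds it open, had 283, 282 and 269 CPM at 0 h, 439.8, 435 and 432 CPM at 3 h and 539.9, 517 and 523 CPM at 6 h. Each time lay above the one before it, with no overlap between groups. UBTF had a log2 fold change of 0.65 ± 0.0439, adjusted p = 1.52e-08, at 3 h and 0.92 ± 0.0440, adjusted p = 3.64e-10, at 6 h. UBTF was higher at 6 h than at 3 h (0.27 ± 0.0436, adjusted p = 0.000205). It had the highest level per kilobase of the 7 factors at every time, with 39.8 CPM per kb at 0 h, 62.3 at 3 h and 75.3 at 6 h.

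SL1 is the TBP-containing complex that recognises the ribosomal DNA promoter, and its 4 listed subunits, TAF1A to TAF1D, rose with unlike time courses. TAF1A went further up between 3 h and 6 h, with means of 10.3 ± 0.571, 12 ± 0.753 and 16.0 ± 0.258 CPM at 0 h, 3 h and 6 h (SD, n = 3 each). TAF1A had log2 fold changes of 0.23 ± 0.0699 at 3 h and 0.64 ± 0.0692 at 6 h. The call at 3 h was lost without replicate 6 of that time (adjusted p = 0.0541). TAF1B came partly back: it averaged 21.1 ± 0.598, 29.8 ± 1.40 and 24.4 ± 0.724 CPM at 0 h, 3 h and 6 h (SD, n = 3 each). TAF1B had log2 fold changes of 0.49 ± 0.0553 at 3 h and 0.20 ± 0.0559 at 6 h, the second of which became -0.0327 with library size alone. TAF1C likewise came partly back, with log2 fold changes of 0.61 ± 0.0482 at 3 h, 0.49 ± 0.0483 at 6 h and -0.12 ± 0.0480, adjusted p = 0.0492, for 6 h against 3 h. TAF1D was higher at both times by 0.43 ± 0.0516 and 0.48 ± 0.0517 on the log2 scale, with no call between them. TTF1, which binds the terminators at the end of the ribosomal RNA gene and stops Pol I, rose at 3 h by 0.18 ± 0.0522, adjusted p = 0.00669, on the log2 scale (-0.0185 with library size alone) and was at -0.02 ± 0.0526, adjusted p = 0.77, at 6 h.

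Among the 9 listed Pol III subunits, 7 were higher and 1 lower at 3 h, and 8 were higher and 1 lower at 6 h, with medians of 0.68 and 0.78. Of all genes tested, 32.8% were higher and 33.5% lower at 3 h, and 35.7% and 35% at 6 h. POLR3A (ENSG00000148606), the largest subunit, had 39.2, 39.8 and 32.3 CPM at 0 h, 64.9, 68.8 and 65.3 CPM at 3 h and 74.8, 75.6 and 76.4 CPM at 6 h. The groups did not overlap, and untreated replicate 3 was the lowest library. POLR3A had a log2 fold change of 0.84 ± 0.0696, adjusted p = 1.17e-07, at 3 h and 1.03 ± 0.0697, adjusted p = 1.12e-08, at 6 h, and 0.19 ± 0.0684, adjusted p = 0.0389, for 6 h against 3 h. POLR3B, which completes the catalytic core with POLR3A, averaged 22.4 ± 1.64, 39.7 ± 0.895 and 38.5 ± 1.35 CPM at 0 h, 3 h and 6 h (SD, n = 3 each), with log2 fold changes of 0.83 ± 0.0597 and 0.78 ± 0.0599 at 3 h and 6 h. POLR3D and POLR3E form the Pol III counterpart of the POLR1E and POLR1G dimer. POLR3E rose by 0.74 ± 0.0426 at 3 h and 0.93 ± 0.0427 at 6 h on the log2 scale, and was higher at 6 h than at 3 h (0.19 ± 0.0422, adjusted p = 0.00257). POLR3D rose by 0.22 ± 0.0490, adjusted p = 0.00128, at 3 h and 0.28 ± 0.0491, adjusted p = 0.000158, at 6 h.

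POLR3C, POLR3F and POLR3G, or its paralog POLR3GL, form the subcomplex that Pol III needs to open its promoters. POLR3F rose by 0.77 ± 0.0604 at 3 h and 0.84 ± 0.0605 at 6 h on the log2 scale, with means of 10.6 ± 0.426, 18.1 ± 0.282 and 19.0 ± 0.678 CPM at 0 h, 3 h and 6 h (SD, n = 3 each). POLR3C had a log2 fold change of 0.03 ± 0.0484, adjusted p = 0.555, at 3 h and was higher at 6 h (0.23 ± 0.0484, adjusted p = 0.000811). Library size alone turned its direction at both times (-0.17 and -0.0099), and upper-quartile factors did so at 3 h (-0.12). With both scalings POLR3C passed as lower at 3 h. POLR3K, the subunit for RNA cleavage and reinitiation, rose at both times, by 0.47 ± 0.0765 and 0.75 ± 0.0765 on the log2 scale. POLR3K was also higher at 6 h than at 3 h (0.28 ± 0.0758, adjusted p = 0.0094). Per kilobase of exon, POLR3C was the highest of the 9 at 0 h with 21.9 CPM per kb and POLR3K at 6 h with 32.3 CPM per kb. POLR3F was the lowest at every time, with 3.62 at 0 h, 6.17 at 3 h and 6.49 at 6 h.

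The paralogs POLR3G and POLR3GL moved in opposite directions. They occupy the same place in Pol III, so that an enzyme holds 1 of them; POLR3G is known for its high level in stem cells and tumours and POLR3GL for its presence in most tissues. POLR3G (ENSG00000113356) had 26.6, 25.5 and 25.8 CPM at 0 h, 39.9, 43.1 and 41.6 CPM at 3 h and 57.7, 57.8 and 60.4 CPM at 6 h. POLR3GL (ENSG00000121851) had 30.5, 30.2 and 31.1 CPM at 0 h, 26.5, 25.4 and 27.9 CPM at 3 h and 20.2, 19.0 and 22.7 CPM at 6 h. For both genes the 3 times did not overlap, and POLR3G was highest and POLR3GL lowest at 6 h. POLR3G had a log2 fold change of 0.68 ± 0.0508, adjusted p = 4.14e-08, at 3 h and 1.17 ± 0.0507, adjusted p = 1.52e-10, at 6 h. POLR3G stood at 0.50 ± 0.0498, adjusted p = 4.35e-06, for 6 h against 3 h. POLR3GL had a log2 fold change of -0.20 ± 0.0650, adjusted p = 0.0131, at 3 h and -0.57 ± 0.0661, adjusted p = 2.96e-06, at 6 h. POLR3GL stood at -0.37 ± 0.0667, adjusted p = 0.000589, for 6 h against 3 h. Without replicate 6 of the 3 h group, the fall of POLR3GL at 3 h did not pass (adjusted p = 0.0587). POLR3GL shares 21.2% of its exon length with AC243547.3, a gene on the same strand that is not analysed here.

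The ratio of the pair within a library does not depend on how libraries are scaled. The log2 ratio of POLR3G reads to POLR3GL reads was -0.20, -0.24 and -0.27 at 0 h, 0.59, 0.77 and 0.58 at 3 h and 1.51, 1.61 and 1.41 at 6 h. The 3 groups were apart by several times their spread. The mean log2 ratio was 0.65 ± 0.104 at 3 h against -0.24 ± 0.0369 at 0 h (SD, n = 3 each), a difference of 0.88 or 1.84-fold. It was 1.51 ± 0.0956 at 6 h, 1.75 above 0 h and 0.87 above 3 h, or 3.36-fold and 1.82-fold. Each of the 3 exact two-sided permutation tests gave p = 0.1, the smallest that 3 libraries against 3 allow. Per kilobase of exon, POLR3G was below POLR3GL at 0 h, with 6.46 and 17.0 CPM per kb, and above it at 6 h, with 14.6 and 11.5 CPM per kb.

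**Figure D3:**
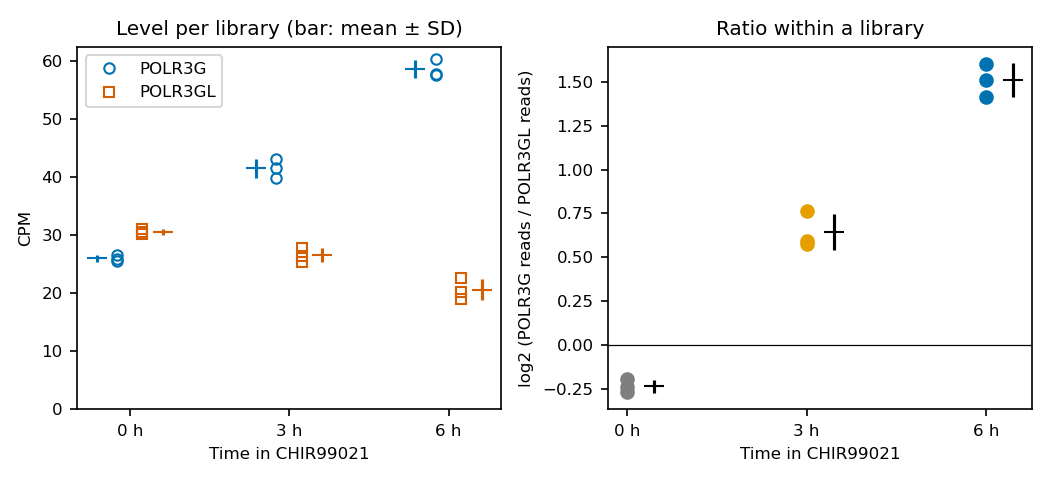
Left, CPM of POLR3G (blue circles) and POLR3GL (orange squares) in each library at 0 h, 3 h and 6 h, with the mean and SD of 3 libraries beside the points; right, the log2 ratio of their reads within each library with its mean and SD. The ratio is below 0 in all 3 libraries at 0 h, between 0.58 and 0.77 at 3 h and between 1.41 and 1.61 at 6 h.

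TFIIIB, the factor that places Pol III at its start sites, consists of TBP, BDP1 and either BRF1 or BRF2. BRF1, which serves the 5S and transfer RNA promoters, rose at 3 h and had no call against 0 h at 6 h. All 3 of its libraries at 6 h (34.4, 31.6 and 31.5 CPM) still lay above all 3 at 0 h (29.3, 30.4 and 31.2 CPM). It averaged 30.3 ± 0.962, 44.3 ± 2.77 and 32.5 ± 1.67 CPM at 0 h, 3 h and 6 h (SD, n = 3 each). BRF1 had a log2 fold change of 0.55 ± 0.0598, adjusted p = 1.84e-06, at 3 h and 0.10 ± 0.0604, adjusted p = 0.145, at 6 h. BRF1 stood at -0.45 ± 0.0601, adjusted p = 5.01e-05, for 6 h against 3 h. The value at 6 h against 0 h depended on the processing: it was -0.13 (adjusted p = 0.0506) with library size alone, -0.0452 (adjusted p = 0.514) with upper-quartile factors and 0.32 (adjusted p = 0.000736) with length and GC trends removed. BRF2, which serves the U6 type of promoter, was higher at both times, with log2 fold changes of 0.78 ± 0.0887 and 0.59 ± 0.0897 at 3 h and 6 h. BRF2 averaged 7.16 ± 0.365, 12.3 ± 0.762 and 10.8 ± 1.21 CPM at 0 h, 3 h and 6 h (SD, n = 3 each). In the GENCODE v29 models 59.0% of its exon length overlaps ADGRA2, whose mean was at most 0.0658 CPM at any time.

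BDP1 (ENSG00000145734), the TFIIIB subunit used at all Pol III promoters, had 81.6, 82.2 and 47.2 CPM at 0 h, 112, 128 and 109 CPM at 3 h and 96.8, 121 and 105 CPM at 6 h. The treated libraries were all above the untreated ones, and untreated replicate 3 was far below the other untreated libraries. BDP1 had a log2 fold change of 0.72 ± 0.204, adjusted p = 0.014, at 3 h and 0.62 ± 0.204, adjusted p = 0.0264, at 6 h, the widest SE of the 37 genes. Without untreated replicate 3 the log2 fold changes were 0.50 (adjusted p = 0.00193) and 0.39 (adjusted p = 0.00684). Without replicate 6 of the 3 h group the call at 3 h was lost (adjusted p = 0.0549).

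TFIIIA and the 6 subunits of TFIIIC bind the promoter elements inside the 5S and transfer RNA genes and bring in TFIIIB. At 3 h, 5 of these 7 genes were higher and 2 did not pass, and at 6 h, 6 were higher and 1 did not pass, with medians of 0.41 and 0.42, beside 32.8% and 35.7% of all genes tested that were higher. GTF3C6 (ENSG00000155115), the smallest TFIIIC subunit, had 25.3, 24.6 and 29.2 CPM at 0 h, 39.4, 40.4 and 41.7 CPM at 3 h and 59.6, 49.4 and 58.0 CPM at 6 h. The 3 groups did not overlap. GTF3C6 had a log2 fold change of 0.62 ± 0.0789, adjusted p = 1.02e-05, at 3 h and 1.08 ± 0.0787, adjusted p = 3.07e-08, at 6 h. GTF3C6 stood at 0.46 ± 0.0775, adjusted p = 0.000346, for 6 h against 3 h. GTF3C4, a subunit with acetyltransferase activity, rose by 1.14 ± 0.0836, adjusted p = 6.71e-08, at 3 h and 0.88 ± 0.0835, adjusted p = 6.21e-07, at 6 h on the log2 scale. It was lower at 6 h than at 3 h (-0.25 ± 0.0822, adjusted p = 0.0251). Without untreated replicate 3 the rises were 1.02 and 0.76. GTF3C2 and GTF3C5, subunits of the B lobe and the A lobe of TFIIIC, rose by 0.47 ± 0.0467 and 0.41 ± 0.0525 at 3 h and by 0.51 ± 0.0467 and 0.42 ± 0.0526 at 6 h.

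GTF3C1 (ENSG00000077235), the largest TFIIIC subunit, rose after 3 h. Its means were 78.3 ± 10.5, 73.0 ± 0.227 and 104 ± 6.87 CPM at 0 h, 3 h and 6 h (SD, n = 3 each). At 0 h untreated replicate 3 had 66.3 CPM against 82.6 and 86.0 CPM in the other untreated libraries. GTF3C1 had a log2 fold change of -0.10 ± 0.0832, adjusted p = 0.304, at 3 h and 0.41 ± 0.0830, adjusted p = 0.000652, at 6 h. GTF3C1 stood at 0.51 ± 0.0833, adjusted p = 0.000321, for 6 h against 3 h. Without untreated replicate 3 it was lower at 3 h (-0.21, adjusted p = 0.0016) and higher at 6 h (0.30, adjusted p = 6.29e-05). GTF3A, the zinc finger protein TFIIIA, which is specific to the 5S gene, rose by 0.22 ± 0.0506 at 3 h and 0.38 ± 0.0506 at 6 h. GTF3C3, which contacts TFIIIB, passed in no comparison with the usual factors. Its log2 fold changes were 0.02 ± 0.0596, adjusted p = 0.775, at 3 h and 0.14 ± 0.0596, adjusted p = 0.0503, at 6 h. At 3 h it passed as lower with library size alone (-0.18) and with length and GC trends removed (-0.0943). At 6 h it was -0.0959 with library size alone and -0.0070 with upper-quartile factors, neither past the threshold.

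Of the 3 regulators, MAF1 represses Pol III when growth signals stop. MYBBP1A and DDX21 are nucleolar proteins tied to the making of ribosomal RNA, and whether they raised or lowered it here was not measured. MAF1 (ENSG00000179632) had 118, 119 and 137 CPM at 0 h, 138, 122 and 135 CPM at 3 h and 148, 133 and 138 CPM at 6 h. The 3 groups overlapped. MAF1 had a log2 fold change of 0.08 ± 0.0675, adjusted p = 0.32, at 3 h and 0.16 ± 0.0676, adjusted p = 0.0491, at 6 h, the second just past the threshold. That call was lost with DESeq2 (adjusted p = 0.0575) and when any of 6 single libraries was left out (adjusted p = 0.0535 to 0.18), and the value was -0.0785 with library size alone and 0.0099 with upper-quartile factors. At 3 h these scalings gave -0.12 and -0.0755, neither past the threshold. With length and GC trends removed MAF1 was higher at both times, by 0.33 (adjusted p = 1.04e-06) at 3 h and 0.38 (adjusted p = 1.91e-07) at 6 h, so its direction depends on the processing. Without untreated replicate 3 it was 0.14 (adjusted p = 0.0249) at 3 h and 0.22 (adjusted p = 0.0013) at 6 h. In the test for any difference among the 3 times, MAF1 did not pass (adjusted p = 0.119).

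MYBBP1A (ENSG00000132382), a MYB-binding nucleolar protein found with Pol I, had 43.5, 46.1 and 42.8 CPM at 0 h, 125, 117 and 120.2 CPM at 3 h and 210.4, 199 and 195 CPM at 6 h. Each time lay well above the one before it. MYBBP1A had a log2 fold change of 1.45 ± 0.0524, adjusted p = 5.85e-11, at 3 h and 2.19 ± 0.0533, adjusted p = 1.21e-12, at 6 h. MYBBP1A stood at 0.74 ± 0.0509, adjusted p = 1.4e-07, for 6 h against 3 h, the largest rise of the 37 genes between 3 h and 6 h. DDX21 (ENSG00000165732), an RNA helicase that acts at ribosomal DNA and on the precursor RNA, had 463, 462 and 383 CPM at 0 h, 973, 1054 and 992 CPM at 3 h and 930.0, 926 and 987 CPM at 6 h. Treated libraries were all above untreated ones, and it had the highest level per kilobase of all 37 genes, with 86.8, 201 and 189 CPM per kb at 0 h, 3 h and 6 h. DDX21 had a log2 fold change of 1.21 ± 0.0692, adjusted p = 3e-09, at 3 h and 1.12 ± 0.0691, adjusted p = 4.34e-09, at 6 h, with no call between 6 h and 3 h (-0.09 ± 0.0682, adjusted p = 0.329).

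Between 3 h and 6 h the machinery moved less and in both directions. Of the 37 members, 13 were higher at 6 h than at 3 h, 7 were lower and 17 did not pass, with a median of 0.04, against 21.5% higher and 21.9% lower of all genes tested and a median of 0.01. With library size alone the counts were 11 higher and 10 lower. Over all genes that scaling gave 2984 higher and 3963 lower, against 3402 and 3469 with the usual factors. Of the 9 Pol III subunits, 5 were higher and 1 lower at 6 h than at 3 h, while of the 7 Pol I initiation and termination factors 2 were higher and 4 lower. In the test for any difference among the 3 times, 35 of 37 members passed, against 77.7% of all genes tested.

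The calls of the 3 comparisons sort the members into time courses. The most frequent was a rise by 3 h with no further call, which 14 members followed, POLR1A, POLR1B, POLR1C and DDX21 among them, against 15.4% of all genes. A rise at 3 h and a second rise at 6 h was followed by 10 members, against 8.71% of all genes: POLR1G, UBTF, TAF1A, POLR3A, POLR3E, POLR3G, POLR3K, GTF3A, GTF3C6 and MYBBP1A. A rise that came partly back was seen in 4 members (5.05% of all genes): RRN3, TAF1B, TAF1C and GTF3C4. TTF1 and BRF1 rose and were back at 6 h, lower than at 3 h and without a call against 0 h (2.88% of all genes). POLR3C, GTF3C1 and MAF1 were higher at 6 h alone (7.5%). POLR3GL was the single member to fall at 3 h and again at 6 h, a course that 8.54% of all genes followed. POLR1H fell at 3 h and was back at 6 h, POLR1D was lower at 6 h alone, and GTF3C3 passed in no comparison; these courses were followed by 2.88%, 6.51% and 19.7% of all genes. Leaving out 1 library ended the calls between 6 h and 3 h of POLR3A (adjusted p up to 0.125), TAF1C (up to 0.165), GTF3C4 (up to 0.0824) and GTF3A (up to 0.0595), and that of RRN3 without replicate 6 of the 3 h group (0.0599), so their sorting between a held, a further and a returning rise is uncertain.

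**Figure D4:**
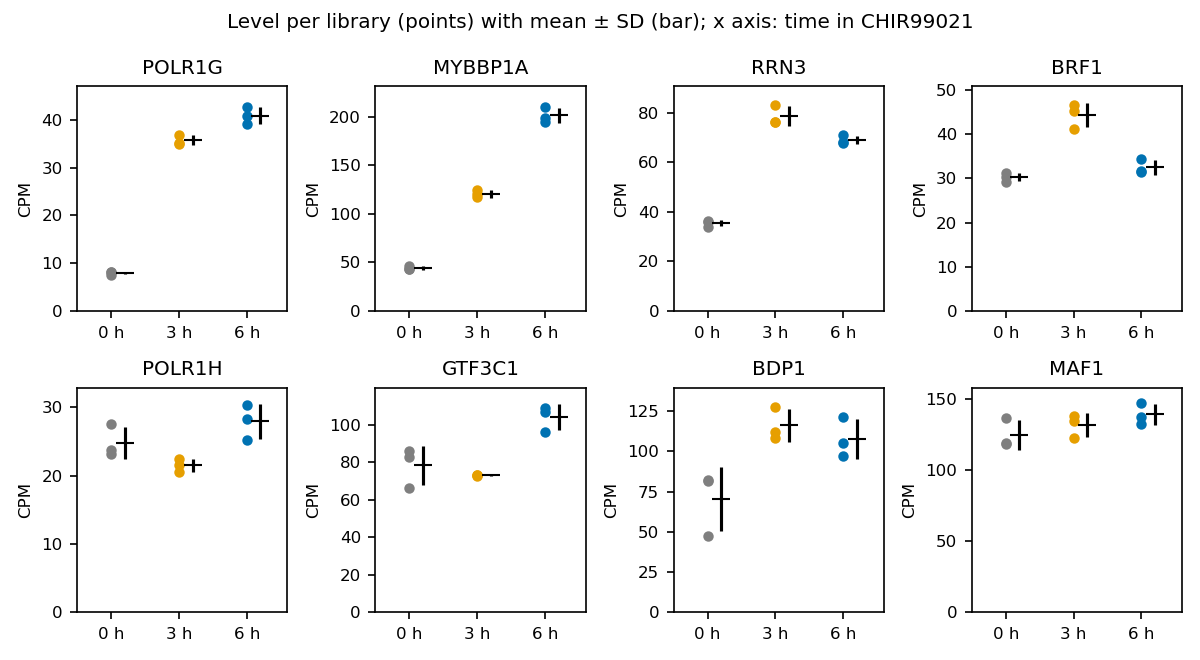
CPM of 8 members in each library at 0 h, 3 h and 6 h, with the mean and SD of 3 libraries beside the points; each y axis starts at 0. POLR1G and MYBBP1A are higher at 3 h and higher again at 6 h, RRN3 and BRF1 are highest at 3 h, POLR1H is lowest at 3 h, GTF3C1 is highest at 6 h, BDP1 has 1 low library at 0 h (47.2 CPM), and the groups of MAF1 overlap.

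Genes outside the 37 members, grouped by their place in the pathway, are given here by count. All 5 subunits shared by Pol I, II and III (POLR2E, POLR2F, POLR2H, POLR2K and POLR2L) were higher at 6 h and 4 of the 5 at 3 h, with medians of 0.60 and 0.26, against 35.7% and 32.8% of all genes tested. POLR2F had the largest rise, with log2 fold changes of 0.45 ± 0.0985 at 3 h and 0.98 ± 0.0983 at 6 h. CRCP, a further Pol III subunit, rose by 0.91 ± 0.0640 at 3 h and 0.59 ± 0.0642 at 6 h. Of the 7 subunits of Pol II alone, 5 were higher and 1 lower at 3 h and 6 were higher and 1 lower at 6 h, with medians of 0.50 and 0.46, beside the same shares of higher genes and 33.5% and 35% lower over all genes. POLR2A, its largest subunit, rose by 0.75 ± 0.0798 at 3 h and 1.03 ± 0.0801 at 6 h.

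Of 9 factors for the U6 type of Pol III promoter, 3 were higher and 1 lower at 3 h, and 4 were higher and 3 lower at 6 h, with medians of -0.03 and 0.05. At 3 h the count of higher genes is near the 32.8% over all genes tested, and at 6 h both counts are near the 35.7% higher and 35% lower. SNAPC4, the largest subunit of the SNAP complex that binds these promoters, had log2 fold changes of 1.32 ± 0.0569 at 3 h and 1.63 ± 0.0571 at 6 h. TBP, which is also part of SL1 and TFIIIB, was among the higher genes, at 0.28 ± 0.0521 at 3 h and 0.18 ± 0.0523 at 6 h. CHD8 was higher too, at 0.70 ± 0.104 at 3 h and 0.66 ± 0.104 at 6 h. The octamer factor POU2F1 was at -0.51 ± 0.0955 at 6 h. Of 19 tested factors of ribosomal DNA chromatin and the nucleolus, 15 were higher and 1 lower at each time, with medians of 0.40 and 0.56, against 32.8% higher and 33.5% lower of all genes at 3 h and 35.7% and 35% at 6 h. NCL, NOL11 and NOLC1 rose by 1.62 ± 0.0480, 1.43 ± 0.0472 and 1.34 ± 0.0539 at 6 h. The gene of this list that fell was BAZ2A, which silences ribosomal DNA repeats, at -0.45 ± 0.110 and -0.43 ± 0.110 at 3 h and 6 h. It had 319, 316 and 233 CPM at 0 h and 204, 237 and 204 CPM at 6 h. These groups overlapped through untreated replicate 3. MYC mRNA fell, with means of 558 ± 22.6, 447 ± 22.2 and 349 ± 12 CPM at 0 h, 3 h and 6 h (SD, n = 3 each). Its log2 fold changes were -0.32 ± 0.0522 and -0.68 ± 0.0525 at 3 h and 6 h. MYC protein was not measured.

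**Figure D5:**
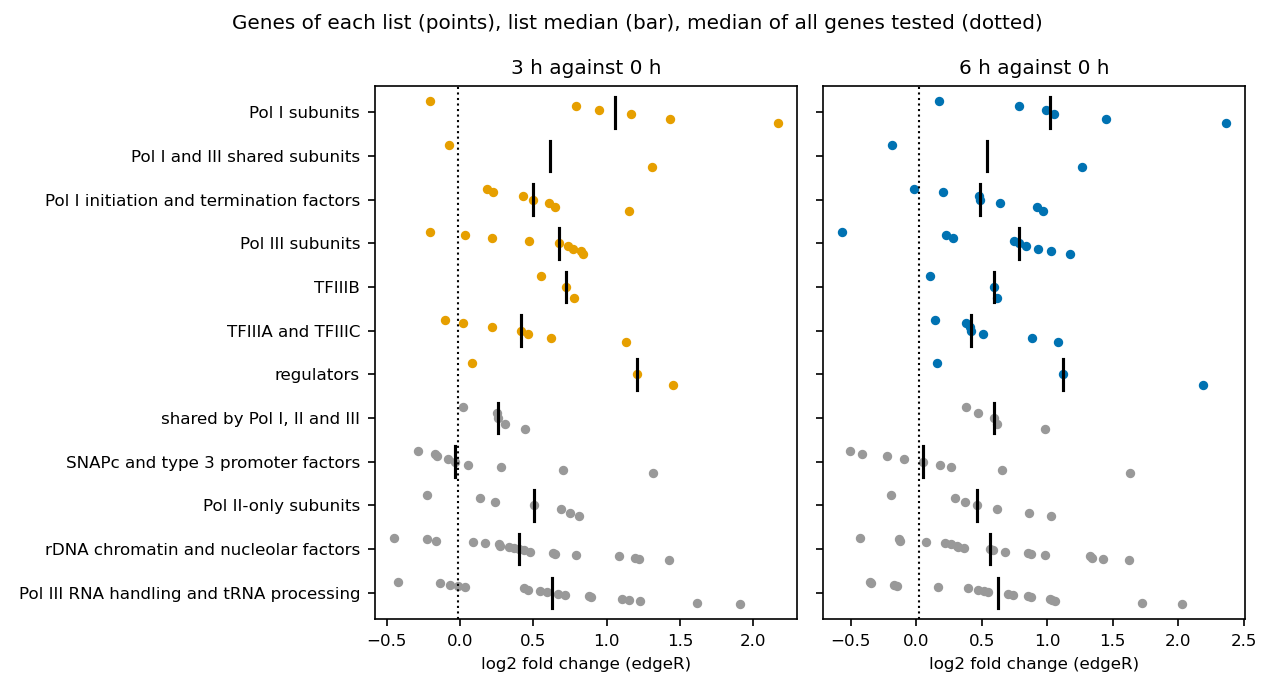
Log2 fold change of each gene (points) at 3 h (left) and 6 h (right) against 0 h, by gene group, with the group's median (bar) and the median of all genes tested (dotted line, -0.01 and 0.02); the 37 members are coloured and genes outside them grey. The members' groups have medians of 0.41 or more at both times, and the factors for the U6 type of promoter lie around the dotted line.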

How the data were processed

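Polyadenylation or ribosomal RNA selection and the strand setting are not given in the sources used here. The deposited table holds unnormalised counts of reads by Ensembl identifier; the submitters' processing notes name GSNAP, HTSeq 0.6.0 and build hg19. The 5 HTSeq summary entries were set aside, and reads without a feature took 15.0% to 17.6% and not uniquely aligned reads 9.89% to 11.7% of a library.

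edgeR 4.0.16 in R 4.3.3 was run on these counts: filterByExpr (minimum count 10, minimum total 15), TMM factors, and a robust quasi-likelihood fit with a mean per group over all 9 libraries (6 residual degrees of freedom), tested two-sided with Benjamini-Hochberg adjustment over all 15847 genes and a threshold of 0.05. The biological coefficient of variation was 6.53%. edgeR prints no SE, so that of a log2 fold change was its absolute value divided by the square root of the test's F statistic. CPM used the TMM-scaled library sizes. A count of 0 allowed up to 0.0567 to 0.0647 CPM (counting error only), taken over the reads in genes without TMM factors. Exon lengths and overlaps came from GENCODE v29 (GRCh38), and promoters from RefSeq (GRCh38.p14), used for sequence and names only. The procedure was tested on simulated data.

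The members and lists were chosen with earlier results of these data known. Named genes were the largest subunits, RRN3, UBTF, MAF1, POLR3G, POLR3GL, MYBBP1A and DDX21. The largest change per group at 6 h and members that went against their group were also named. Of other lists, some or all of the 3 genes with the smallest p at 6 h were named. BAZ2A, POLR2F, TBP and GTF3C1 were singled out after their values were seen. Other tools were DESeq2 1.42.0 and voom in limma 3.58.1. Other scalings were library size alone, upper quartiles and the size factors of DESeq2. Other filters were none and 1 CPM in 3 libraries. Fits with only the 2 groups compared, a minimum fold of 1.2, and with each library left out were also run; removal of length and GC trends was added after seeing the data. Figures used matplotlib 3.10.9 in Python 3.11.15.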

Additional observations from a re-analysis of the deposited data

How the results depend on the processing

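The calls of 25 of 37 members at 3 h, 26 at 6 h and 18 for 6 h against 3 h kept their direction and side of the threshold under all alternatives, except that the sign of POLR1A, POLR1E and GTF3C5 for 6 h against 3 h, which passed under none, turned under some. Members lower at 3 h (2) numbered 5 with upper-quartile factors, 6 with library size alone and 0 with a minimum fold of 1.2, and 0 to 2 with a library left out (1 without replicate 5 and 0 without replicate 6 of the 3 h group). Members lower at 6 h numbered 1 with length and GC trends removed and 1 with a minimum fold of 1.2. A minimum fold of 1.2 gave 5 members higher and 1 lower for 6 h against 3 h, 3453 genes higher at 3 h, and 1136 higher and 1368 lower for 6 h against 3 h. The members' median moved to 0.47 (upper-quartile), 0.42 (library size alone) and 0.57 (1 CPM in 3 libraries) at 3 h, and to 0.49, 0.41 and 0.60 at 6 h, where the compared groups alone gave 0.61 and leaving out a library 0.59 to 0.72. With library size alone, genes higher at 6 h numbered 3656 and the members' median for 6 h against 3 h was 0.0112. With library size alone the direction turned, in values called under either scaling, for POLR3C (-0.17), TTF1 (-0.0185) and GTF3C3 (-0.18) at 3 h and for TAF1B (-0.0327), POLR3C (-0.0099) and MAF1 (-0.0785) at 6 h. Among values called under neither, it turned for MAF1 at 3 h (-0.12), for POLR1H (-0.0662), BRF1 (-0.13) and GTF3C3 (-0.0959) at 6 h, and for POLR1A (-0.0165) and GTF3C5 (-0.0297) between 6 h and 3 h. At 3 h it also turned for POLR3C with upper-quartile factors (-0.12) and for GTF3C3 with length and GC trends removed (-0.0943). Upper-quartile factors also turned, with no call, GTF3C3 (-0.13) and MAF1 (-0.0755) at 3 h and BRF1 (-0.0452) and GTF3C3 (-0.0070) at 6 h. The cause of these turns was not tested beyond the shift of all genes that a scaling brings. BDP1 lost its calls with no filter (adjusted p = 0.0513 at 3 h and 0.0825 at 6 h) and at 6 h with the compared groups alone (0.0622). No paired analysis was run, because the labels do not give whether libraries of different times came from matched cultures.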

Other observations

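Genes that handle the products of Pol III were also counted. Of 18 genes of Pol III RNA handling and transfer RNA processing, 13 were higher and 1 lower at 3 h, against 32.8% and 33.5% of all genes tested, and 14 were higher and 3 lower at 6 h, against 35.7% and 35%. TRMT61A, which with TRMT6 methylates transfer RNA, had log2 fold changes of 1.91 ± 0.0677, adjusted p = 5.64e-11, at 3 h and 2.03 ± 0.0679, adjusted p = 1.65e-11, at 6 h (± SE, edgeR). POP1, a protein subunit of RNase P and RNase MRP, rose by 1.62 ± 0.0569, adjusted p = 5.02e-11, at 3 h and 1.72 ± 0.0570, adjusted p = 1.5e-11, at 6 h. TRNT1, which adds the CCA end to transfer RNA, rose by 1.15 ± 0.0523 at 3 h and 1.05 ± 0.0524 at 6 h. Of 17 kinases and upstream regulators of Pol III, 7 were higher and 4 lower at 3 h and 8 were higher and 5 lower at 6 h, with medians of 0.09 and 0.05. These counts are near the shares over all genes, 32.8% higher and 33.5% lower at 3 h and 35.7% and 35% at 6 h.

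Of 16 Pol III transcripts looked for, 9 matched the table by symbol. Of these, 6 had 0 reads in all 9 libraries and the highest count in any library was 8, so none was tested and the output of Pol III is not measured here.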
